A study of Mus musculus with 39 samples.

Results

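The genes described here encode the proteins of the cytosolic ribosome. They were taken as the protein-coding genes whose symbols have the form Rps or Rpl followed by a number, with or without a closing a, x or l, together with Rplp0, Rplp1, Rplp2 and Rpsa, and without pseudogenes. The rule found 81 of the 27179 genes in the count table, 31 of the small and 50 of the large subunit. Rps4l and Rpl6l matched the symbol pattern but are annotated as pseudogenes, and were left out. Read counts came from parathyroid glands of male mice aged 11 weeks, with the glands of 2 mice pooled in each library. The knockout (KO, 18 libraries) was PTHcre;Bmal1 flox/flox, bred from the floxed line B6.129S4(Cg)-Arntl tm1Weit/J and, as the source of Cre, 129;FVB-Tg(PTH-cre)4167Slib/J. In these mice Cre under the human PTH promoter removes exon 8 of Bmal1, the partner of CLOCK in the molecular clock, in parathyroid cells. Littermates with the same floxed Bmal1 alleles but no Cre served as controls (WT, 21 libraries), so every animal carried the floxed alleles. Glands were taken every 4 h at zeitgeber times (ZT, hours from lights on) 0, 4, 8, 12, 16 and 20, with 2 to 5 libraries per genotype and time. The time was ambiguous for 3 libraries, WT replicates 4 and 5 and KO replicate 1 of ZT16, which a different label places at ZT20. The titles were followed.

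Ribosomal proteins are made in near equal numbers, because each ribosome holds a single copy of most of them. Surplus protein is degraded in the nucleus. Their mRNAs begin with a C followed by a run of C and T, the 5′ terminal oligopyrimidine (TOP) motif, through which the mTOR kinase and the RNA-binding protein LARP1 set how much is translated. In mouse liver, translation of these mRNAs follows the time of feeding and of day. mRNA levels therefore need not follow protein output, and the counts here speak only for mRNA.

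The libraries held 38111766 to 68938704 counts. Of counts from 1 to 10, 89.6% were even. Markers of neighbouring tissues varied widely in both genotypes. In counts per 1e6 of the library total (CPM), the sum of 11 thyroid markers ran from 2.20 to 63551 in WT and from 5.16 to 33605 in KO. That of 17 lymphoid markers ran from 9.49 to 1925 in WT, with a median of 14.9, and from 13.2 to 834 in KO, with a median of 42.5. That of 11 muscle markers ran from 96.6 to 592 and from 165 to 329, and that of 10 fat markers from 36.8 to 695 and from 39.8 to 832. No marker of these 4 lists was at 0 in every library. Of the muscle markers, however, Acta1 stayed at or below 2.03 CPM and Ckm at or below 0.257, while Myh4 reached 149. The muscle sum thus rests little on Acta1 and Ckm. The 6 parathyroid markers summed to 188925 to 295961 CPM in WT and 192424 to 246821 in KO. Each library is a mixture, so fewer cells of a type and less RNA per cell cannot be told apart.

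The 5′ ends of the genes that differed by genotype are shown because the TOP motif begins at the transcription start. Promoter sequence from RefSeq (GRCm38.p6, the mm10 build) was matched for 61 of the 81 genes. Rpl30 and Rpl3 were not among these. The windows run from 50 bases before to 30 bases after an annotated start, on the coding strand, 5′ to 3′. Capitals mark runs of at least 8 C or T. They lie at chr3:130730308-130730387 (minus strand) for Rpl34, chr17:33955636-33955715 (minus) for Rps18, chr17:24720013-24720092 (plus) for Rps2 and chr9:120127716-120127795 (plus) for Rpsa. Rpl35a, at chr16:33056432-33056511 (plus), is added for its values over the day.
Rpl34: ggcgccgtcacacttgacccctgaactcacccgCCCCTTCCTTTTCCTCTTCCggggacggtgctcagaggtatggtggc
Rps18: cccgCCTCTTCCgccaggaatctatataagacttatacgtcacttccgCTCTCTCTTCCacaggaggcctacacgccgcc
Rps2: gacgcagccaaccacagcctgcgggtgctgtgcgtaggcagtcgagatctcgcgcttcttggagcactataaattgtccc
Rpsa: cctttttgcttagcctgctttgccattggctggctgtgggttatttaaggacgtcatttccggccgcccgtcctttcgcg
Rpl35a: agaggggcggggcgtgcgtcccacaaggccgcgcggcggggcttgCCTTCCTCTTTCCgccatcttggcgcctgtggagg

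A run of at least 8 C or T on the coding strand, between 50 bases before and 50 after a start, was present in 52 of the 61 genes (85.2%) and in 38.6% of all 27025 genes with a promoter sequence. The printed windows of Rps2 and Rpsa held none. Rps2 was still among the 52, through a run lying at least partly beyond its printed window, while Rpsa was not. The letters CGGAAG, the core bound by ETS-family factors, were found on either strand between 250 bases before and 50 after a start in 41 of 61 (67.2%), against 18.8% of all genes. Read on the other strand these letters are CTTCCG, which can overlap a C and T run. The E-box CACGTG, the palindromic site bound by CLOCK and BMAL1 and by MYC, was found in 6 of 61 (9.84%), against 8.09% of all genes. The 6 genes were Rpl34, Rpl13a, Rpl14, Rps19, Rpl23 and Rpl19. The E-boxes of Rpl34 and Rpl13a are shown in capitals, because Rpl34 was the only 1 of the 6 past the genotype threshold and Rpl13a lay close to it. The stretch shown for Rpl34 lies at chr3:130730528-130730573 (minus). Its E-box is 155 bases before 1 annotated start and 216 bases before the start used for the Rpl34 window printed above. The stretch for Rpl13a lies at chr7:45128920-45128965 (minus), with the E-box 200 bases before a start.
Rpl34 E-box: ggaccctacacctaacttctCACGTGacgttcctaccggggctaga
Rpl13a E-box: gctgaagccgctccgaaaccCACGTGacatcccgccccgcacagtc
A match is a description of the letters in these windows and says nothing of binding.

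Together the 81 genes took 2.67% ± 0.238 (SD, n = 21) of the counts in WT and 2.67% ± 0.252 (SD, n = 18) in KO. The WT libraries lay between 2.27% and 3.11% and the KO libraries between 2.19% and 3.05%, so the genotypes overlapped over nearly their whole range. After scaling by the trimmed mean of M-values (TMM), which sets libraries on a common scale from genes that differ little between them, the sums were 27552 ± 3279 CPM in WT and 25871 ± 2877 in KO. CPM values from here on are on the TMM scale. The log2 ratio of KO to WT was -0.0035 as a share of counts and -0.0908 after TMM scaling. Single libraries of a genotype had an SD of at most 0.139 in the log2 share of counts. This SD is not the error of a ratio of means, and neither ratio was tested. The large subunit genes took 1.51 ± 0.0789 times the counts of the small subunit genes in WT and 1.55 ± 0.0673 times in KO.

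Per length, the highest mean levels were 1541 CPM per kilobase for Rps14, a protein of the small subunit's platform, 1239 for Rplp1 and 1193 for Rpl41. Rplp1 belongs to the stalk that recruits elongation factors, and Rpl41 is a very short peptide. Among the 76 genes with a mean count of at least 100 the median was 440 CPM per kilobase and the lowest was 70.7, for Rps20. The lowest levels of all were 0.00183 for Rpl10l, 0.0251 for Rpl39l and 0.148 for Rpl3l, the paralogs of Rpl10, Rpl39 and Rpl3, known mainly from testis (Rpl10l, Rpl39l) and from striated muscle (Rpl3l). Rpl10l had 4 counts in 2 libraries and Rpl39l 46 counts in 13 libraries, and both failed the filter on low counts, which left 79 genes tested. Rpl39 itself, a protein of the exit tunnel, had a mean count of only 6.69. Whether this reflects its mRNA level or the way reads were counted was not tested. Rps27l was the exception among the paralogs. It took 10.9% ± 1.00 (SD, n = 21) of the counts of the Rps27 and Rps27l pair in WT and 10.7% ± 0.843 (SD, n = 18) in KO. Rpl32l held a median of 0.308% of its pair.

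Ribosomal protein genes have many processed copies, and 77 of the 81 shared at least 1 window of 75 bases with another annotated gene. The median share of such windows was 46.8% of a gene's transcript, it was over 50% in 32 genes, and it reached 91.9% in Rpl10. No source used here gives how reads with several matches were counted, and each level is uncertain to that extent. The 34 rows named as ribosomal protein pseudogenes held 24533 counts, or 0.0431% of the counts of the 81 genes. Pseudogenes under other names are not in this figure. Among them, Rps4l had a mean count of 1054 per library and Rpl6l of 54.6.

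The genes varied together between libraries. For the 76 better covered genes the median SD of log2 CPM over the 39 libraries was 0.171. Taken relative to the sum of all members in the same library the median SD was 0.0887, and it was the narrower of the 2 in 71 of the 76. The sum holds each gene itself and shares the scaling of its library. No other genes were compared, so this does not show a trait particular to the members. Rpl37a, a zinc-binding protein of the large subunit, kept closest to the sum, with a relative SD of 0.0498. The genes that moved apart from the sum were led by Rpl29, with a relative SD of 0.456. Rpl29 ran from 39.9 CPM in a WT library of ZT12 to 146 in a WT library of ZT20. Rps14 ran from 379 CPM in KO replicate 1 of ZT20 to 1931 in WT replicate 1 of ZT16. Both extremes of Rps14 fell in the same libraries as those of Rpl34, which ran from 85.4 to 288 CPM.

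In the comparison of genotypes over all times, 6 of the 79 genes passed an adjusted p of 0.05 in edgeR's quasi-likelihood test, 2 higher and 4 lower in KO. The background was 7.69% of all 18661 genes tested, 3.58% higher and 4.11% lower, so the share of members called was near the background. Rpl30 and Rpl3 of the large subunit were higher in KO. Rpl34 of the large subunit and Rps2, Rps18 and Rpsa of the small subunit were lower. At an unadjusted p under 0.05 there were 18 members, against 21.1% of all genes.

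Rpl34, a protein of the large subunit's outer surface, had in WT a lowest value of 140.0 CPM, a median of 202 and a highest of 288, and in KO 85.4, 148 and 185. None of the 18 KO libraries lay above the WT median, and 6 lay below the lowest WT library. The mean fell from 204 ± 33.8 to 139.7 ± 30.5 CPM (SD), a log2 fold change of -0.55 ± 0.09 (SE) with an edgeR adjusted p of 1.09e-04. Rpl34 lies at chr3:130726827-130730398 and shares 30.5% of its windows with other genes.

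Rps2, which lines the channel through which the mRNA enters the small subunit, had a lowest, median and highest value of 374, 481 and 589 CPM in WT and of 281, 386 and 496 in KO. In KO 16 of 18 libraries were at or below the WT median and 7 were below the lowest WT library. The mean fell from 479 ± 56.8 to 379.9 ± 58.2 CPM, with a log2 fold change of -0.33 ± 0.06 and an edgeR adjusted p of 6.25e-04. Rps2 lies at chr17:24718121-24721927, and 58.8% of its windows were shared.

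Rpl30, a small protein near the interface of the subunits, went the other way. Its lowest, median and highest values were 112, 135 and 177 CPM in WT and 134, 183 and 234 in KO, and 17 of 18 KO libraries were above the WT median, 9 of them above every WT library. The mean rose from 142 ± 19.3 to 184 ± 31.1 CPM, with a log2 fold change of 0.37 ± 0.07 and an edgeR adjusted p of 3.92e-04. It lies at chr15:34440505-34443276, with 40.1% of windows shared. Rpl3, which reaches towards the peptidyl transferase centre, had values of 434, 503 and 576 CPM in WT and 473, 567 and 715 in KO, with 15 of 18 KO libraries above the WT median. Its log2 fold change was 0.17 ± 0.05, with an edgeR adjusted p of 0.0167. It lies on the same chromosome at chr15:80077781-80083406.

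The differences of Rps18 and Rpsa were smaller and closer to the threshold. Rps18, a protein of the small subunit's head at chr17:33951998-33955665, had values of 323, 445 and 626 CPM in WT and 273, 390.3 and 468 in KO, a log2 fold change of -0.22 ± 0.07 with an edgeR adjusted p of 0.0312. Of its windows 77.8% were shared with other genes. Rpsa, a protein of the small subunit near the mRNA exit, also known as a laminin receptor, lies at chr9:120127766-120132369. It had values of 766, 955 and 1386 CPM in WT and 707, 872 and 1025 in KO, a log2 fold change of -0.18 ± 0.06 with an edgeR adjusted p of 0.0498. The genotypes overlapped widely in both, with 2 KO libraries below the lowest WT library for Rps18 and 4 for Rpsa.

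**Figure D1:**
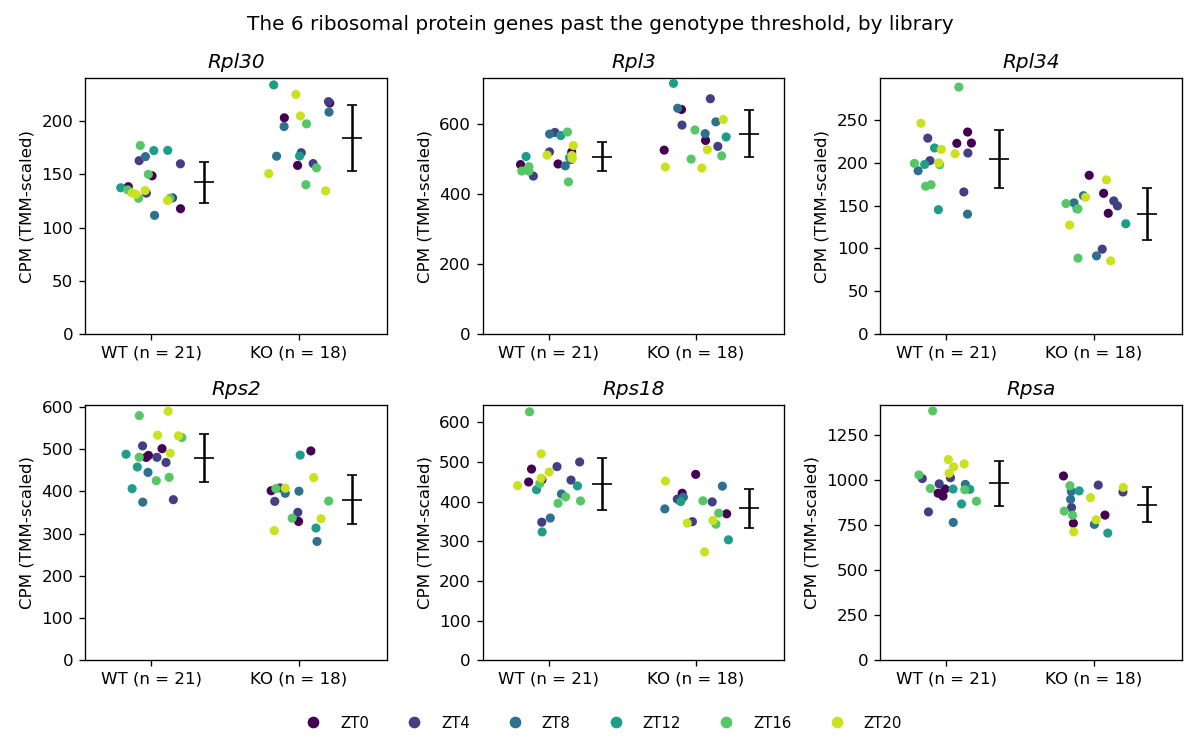
Level (CPM after TMM scaling, linear axis from 0) of the 6 genes past the genotype threshold in each of 21 WT and 18 KO libraries, coloured by zeitgeber time, with the mean and SD beside each group. KO libraries of Rpl34 lie at or below the WT median of 202 CPM, and 9 KO libraries of Rpl30 lie above every WT library.

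Rpl34, Rpl30 and Rps2 passed in 13 of 13 alternative settings and with each of the 39 libraries left out in turn. Without the 12 libraries richest in lymphoid markers (6 of each genotype) these were the 3 genes that passed, and the edgeR adjusted p was 0.171 for Rpl3, 0.410 for Rps18 and 0.506 for Rpsa. Rpl3 also missed with scores of 4 tissues as covariates (0.0919), and Rps18 (0.107) and Rpsa (0.178) with library totals in place of TMM. With the 3 libraries of unclear time left out the edgeR adjusted p was 0.0520 for Rps18 and 0.0587 for Rpsa. Rpsa also missed with these libraries moved to ZT20 (0.0521) and without the filter on low counts (0.0601). In all, Rpl3 passed in 11, Rps18 in 10 and Rpsa in 8 of the 13 settings. Leaving out single libraries ended the call of Rps18 in 14 of 39 fits, with an edgeR adjusted p of up to 0.0579, and of Rpsa in 30 of 39, with up to 0.125. In the full fit none of 17 lymphoid, 11 thyroid and 10 fat markers passed, and 1 of 11 muscle markers was lower in KO. The lists nonetheless leaned to a side, with 15 of 17 lymphoid markers at a positive log2 fold change (median 1.00), 10 of 11 thyroid markers at a negative one (median -0.63) and 11 of 11 muscle markers at a negative one (median -0.42). Of the fat markers 9 of 10 were positive (median 0.14). The muscle markers Acta1 and Ckm were at the very low levels given above. The part of these tissues in the result was not tested beyond these fits.

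Among neighbours within 2 Mb, 3 of 21 tested genes passed around Rpl34 (14.3%), 0 of 21 around Rpl30, 17 of 142 around Rps2 (12.0%) and 16 of 100 around Rpl3 (16.0%). Around Rps18 12 of 167 passed (7.19%) and around Rpsa 3 of 52 (5.77%). Over all genes 7.69% passed. The parental lines were of different strain backgrounds, and the part of this in the result was not tested.

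The other 73 genes did not pass, some with fold changes as large as those of called genes, such as Rpl32l at -0.39 ± 0.17 and Rps14 at -0.21 ± 0.15. A negative log2 fold change was found in 72 of 79 members and in 49.7% of all genes, with medians of -0.09 and 0.00098, but with library totals in place of TMM 43 of 79 members were negative, with a median of -0.0064 where the median of all genes rose to 0.084. In the small subunit 29 of 31 were negative, with a median of -0.09, and in the large subunit 43 of 48, also with a median of -0.09, on the TMM scale. The members move together from library to library, so these counts are not independent observations.

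Of the stalk proteins, Rplp0, Rplp1 and Rplp2 had log2 fold changes of -0.05, -0.08 and -0.11, and none passed. Rpl5 and Rpl11, which carry the 5S ribosomal RNA and bind MDM2 when ribosome assembly fails, had -0.06 and -0.13 without passing. Of the 8 proteins of the exit tunnel and its opening none passed. All but Rpl39 lay between -0.10 and -0.05, and Rpl39, at its low count, had 0.07 ± 0.36, which ran from -0.0096 to 0.19 with single libraries left out. Beside Rps2, the proteins of the mRNA entry and decoding sites Rps3, Rps15 and Rps23 had 0.03, -0.10 and -0.11 without passing. Rps6, the substrate of S6 kinase downstream of mTOR, was just outside the threshold at -0.13 ± 0.05, with means of 351 CPM in WT and 321 in KO and an edgeR adjusted p of 0.0643. Rpl13a, which also takes part in translational control after interferon, had -0.29 ± 0.10, with means of 241 and 195 CPM and an edgeR adjusted p of 0.0717. Both passed with DESeq2 (adjusted p 0.0331 and 0.0344) and with the tissue scores as covariates (0.0406 and 0.0411).

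**Figure D2:**
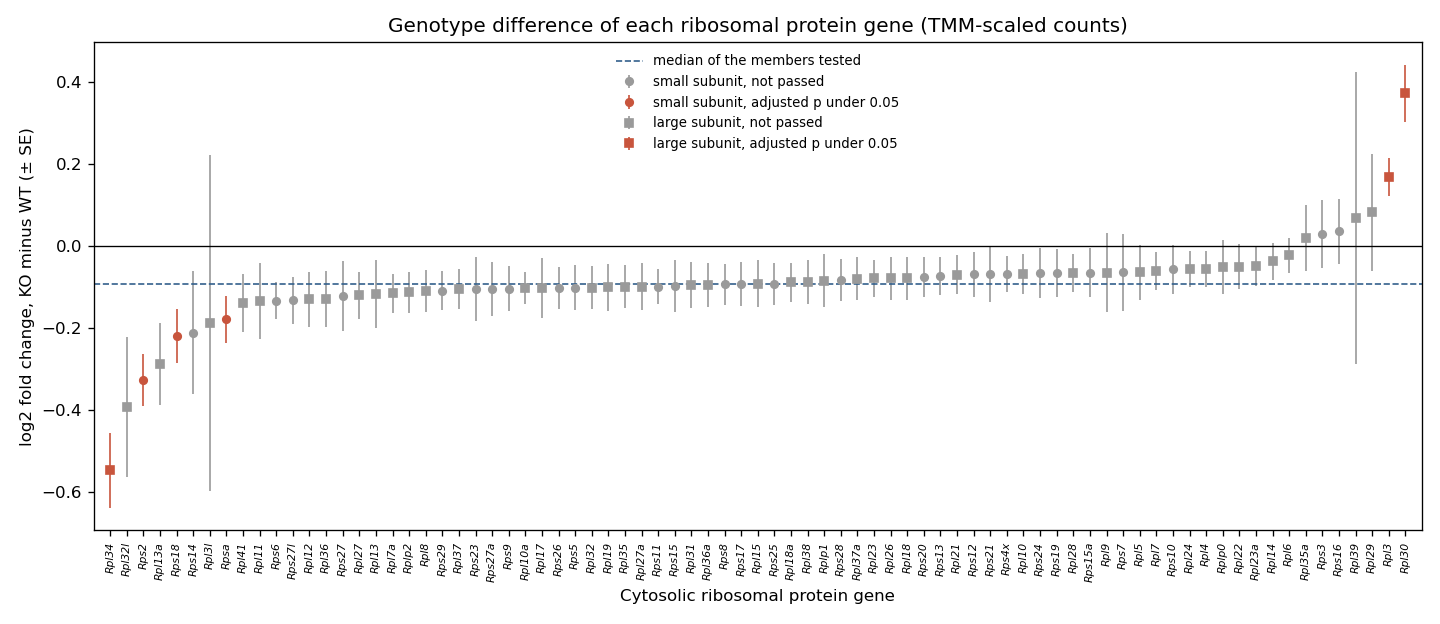
Log2 fold change, KO minus WT, with its SE for each of the 79 ribosomal protein genes tested, in order of size, circles for the small and squares for the large subunit, with the 6 genes past an adjusted p of 0.05 in colour and the members' median as a dashed line. On this TMM scale 72 of 79 values lie below 0. With library totals 43 would, where the median of all genes rises to 0.084.

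Among other genes of ribosome production, 4 of 30 ribosome biogenesis genes were lower in KO and 0 higher, where 4.11% of all genes were lower and 3.58% higher. Their median log2 fold change was -0.06. Nmd3, the export adaptor of the large subunit, fell from 25.1 ± 3.93 to 19.5 ± 2.48 CPM, with a log2 fold change of -0.36 ± 0.06 and an edgeR adjusted p of 1.55e-04. Eif6, which keeps free large subunits from joining, fell from 86.8 to 75.5 CPM (edgeR adjusted p 0.00438). Bop1, of ribosomal RNA processing, and Ltv1, of small subunit assembly, had log2 fold changes of -0.15 and -0.19. Of 15 genes of RNA polymerase I 1 passed, the subunit Polr1e (-0.19 ± 0.05, edgeR adjusted p 0.0102).

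None of 19 other TOP mRNA genes, mostly translation factors, passed (median -0.04), nor any of 9 snoRNA host genes. The 17 regulators of TOP mRNAs, which include mTOR pathway genes, RNA-binding proteins, Myc and Mycn, held none either. The same was true of 7 further ribosome components such as Rack1 and Fau. Eef2, the translocation factor of elongation, had 1733 ± 108 CPM in WT and 1647 ± 141 in KO.

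Within each genotype a cosine of 24 h period was fitted to each gene. In WT 0 of 79 members passed an adjusted p of 0.05 in edgeR, with a background of 0.248%. There were 11 at an unadjusted p under 0.05, against 14.9% of all genes, and DESeq2 called 1, Rpl35a (adjusted p 0.0280), with a background of 2.24%. In KO 0 passed in edgeR, with a background of 0.0779%, 2 were under an unadjusted 0.05 against 8.27% of all genes, and DESeq2 called 0 (background 0.635%). For the difference in rhythm between genotypes 0 passed in edgeR, with a background of 0.0161%, 21 were under an unadjusted 0.05 against 3.69% of all genes, and DESeq2 called 0 (background 0.0108%).

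Rpl35a, a protein of the large subunit mutated in some cases of Diamond-Blackfan anaemia in humans, had the smallest p in WT. In the WT libraries of ZT0 it was at 278, 268 and 208 CPM, and in those of ZT4 at 206, 151, 249.8 and 234. The ZT8 libraries held 172 and 134 CPM, and the ZT12 libraries 183, 135 and 188. For ZT16 the values were 257, 149, 179, 178 and 179.7 CPM, and for ZT20 207, 209.8, 257 and 209.7. Both ZT8 libraries were below all of ZT0 and ZT20, while ZT4 and ZT16 each spanned most of the range. The fitted amplitude, from mean to peak on the log2 scale, was 0.31 ± 0.08 (SE) with a peak at ZT22.9 and an edgeR adjusted p of 0.167 in WT. In KO the amplitude was 0.14 ± 0.07. Its difference in rhythm had an unadjusted p of 0.0134 and an edgeR adjusted p of 1, and that of Rpl11 had 0.0148 and 1.

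The next in WT were Rplp1, with an amplitude of 0.21 ± 0.06, Rps2 with 0.16 ± 0.05 and Rpl29 with 0.53 ± 0.16, with edgeR adjusted p values of 0.240, 0.250 and 0.254. In KO the smallest p values belonged to Rpl22, Rpl36a, Rpl17 and Rpl3, with amplitudes of 0.14, 0.13, 0.16 and 0.13 and edgeR adjusted p values of 0.556, 0.578, 0.610 and 0.630.

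The fitted peaks fell in different parts of the day in the genotypes. In WT 70 of 79 peaked between ZT18 and ZT24, where 30.0% of all genes did. In KO 77 of 79 peaked between ZT0 and ZT12, where 47.9% of all genes did. The median amplitude was 0.117 in WT and 0.0888 in KO, both below the medians of all genes, 0.141 and 0.119. A fitted amplitude is never negative and also takes up noise, which is larger for genes of low count. These medians therefore do not show whether the members varied less over the day. As the genes share libraries and rise and fall together, the numbers of peaks describe a single common pattern. The test of the difference in rhythm called no member.

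**Figure D3:**
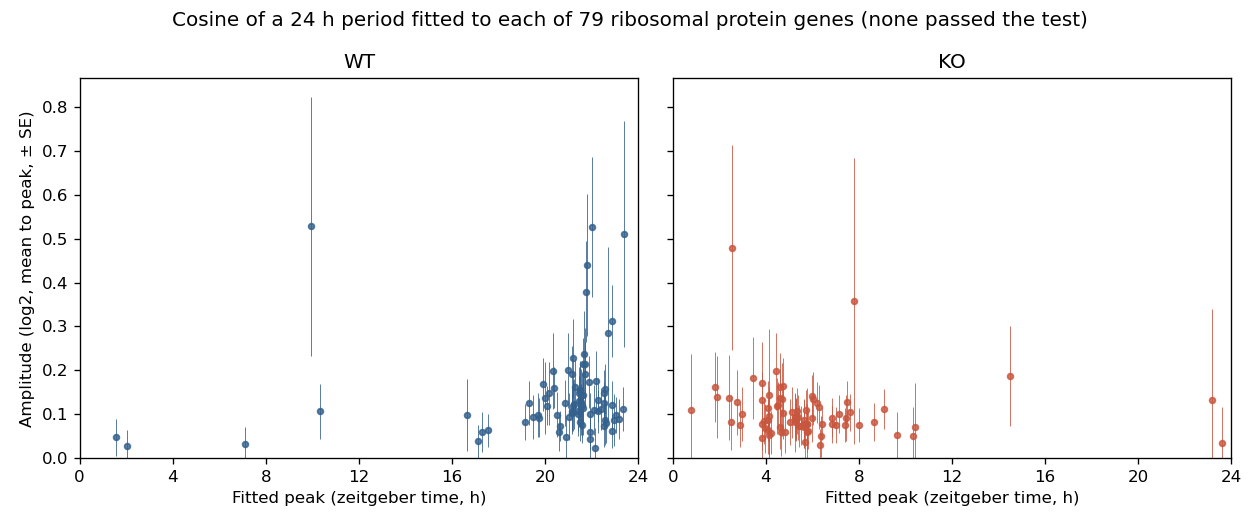
Fitted peak time (zeitgeber time, h) and amplitude (log2, mean to peak, with SE) of the 79 ribosomal protein genes in WT and in KO, from least squares cosines of 24 h period on log2 CPM. With this fit 70 WT peaks lie between ZT18 and ZT24 and 76 KO peaks between ZT0 and ZT12, and none passed the test for rhythm.

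The same pattern was seen in the summed level. From ZT0 to ZT20 its WT means were 2.74%, 2.71%, 2.41%, 2.44%, 2.69% and 2.86% of counts, and its KO means 2.72%, 2.79%, 2.80%, 2.63%, 2.54% and 2.54%. At ZT20 the WT libraries held 2.86%, 3.02%, 2.85% and 2.71% and the KO libraries 2.19%, 2.55%, 2.54% and 2.89%. Thus 3 of the 4 KO libraries were below every WT library of that time, and the highest KO library was above 3 of the 4 WT libraries.

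**Figure D4:**
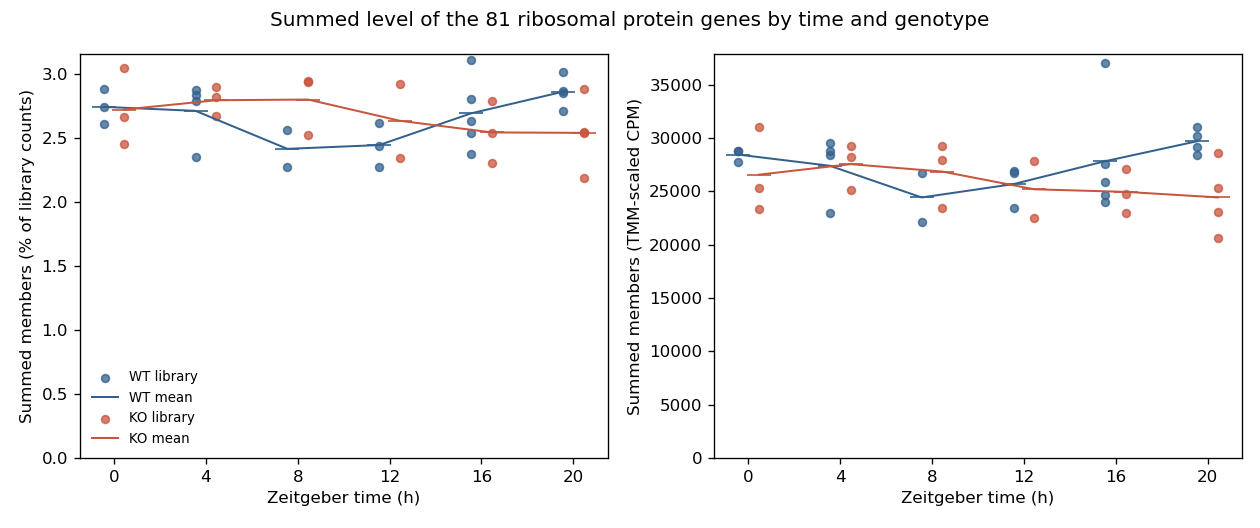
Summed level of the 81 ribosomal protein genes in each library by zeitgeber time, as a percentage of library counts and as CPM after TMM scaling (both axes from 0), with lines through the means of WT and KO. The mean KO share is above WT at ZT8 and below it at ZT20, and single libraries overlap at all 6 times.

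At single times no member passed in edgeR. In order of time, from ZT0 to ZT20, the backgrounds were 0.0643%, 0.075%, 0.0589%, 0.161%, 0.182% and 0.89% of all genes. DESeq2 was not run per time. At an unadjusted p under 0.05 there were 2, 2, 3, 1, 3 and 51 members in the same order, where all genes had 5.67%, 4.04%, 7.76%, 8.42%, 7.81% and 18.4%. The median log2 fold change of the members was -0.11, 0.02, 0.09, -0.02, -0.13 and -0.27. With library totals in place of TMM the value at ZT12 turned to 0.11 and that at ZT20 was -0.16. The median of all genes rose with it, from -0.0018 to 0.13 at ZT12 and from 0.030 to 0.14 at ZT20.

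The members' medians moved with single libraries. At ZT8 the median was 0.0017 without WT replicate 2 (39 of 79 negative) and 0.21 without WT replicate 1. At ZT12 it was -0.17 without KO replicate 2 and 0.13 without KO replicate 1, and at ZT4 -0.05 without WT replicate 2 and 0.06 without KO replicate 2. The sign at ZT4 and ZT12 thus turned with the library left out. At ZT0 it ran from -0.19 without KO replicate 1 to -0.02 without KO replicate 2, and at ZT16 from -0.22 without KO replicate 1 to -0.04 without WT replicate 1.

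The number at ZT20 rested on few libraries. Without KO replicate 1 of ZT20 it was 18 with a median of -0.22, without KO replicate 2 it was 29 with a median of -0.25, and without KO replicate 4 it was 66 with a median of -0.35. It was 18 with the 3 samples of unclear time moved to ZT20, 20 with library totals and 7 without the 12 lymphoid-rich libraries, where the median was -0.26 and 75 of 79 members were negative. With the 3 samples moved the median was -0.18.

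Rps2 came nearest to the threshold at a single time. At ZT20 it had 490.3, 589, 533 and 531 CPM in WT and 407, 335, 307 and 432 in KO. All 4 KO libraries were below all 4 WT libraries, with a log2 fold change of -0.53 ± 0.14 and an edgeR adjusted p of 0.0558. Rpl34 had 216, 246, 211 and 199.9 CPM in WT and 85.4, 180.1, 127 and 159.7 in KO, again without overlap (-0.66 ± 0.21, edgeR adjusted p 0.103). Rpl30 had 135, 132, 131 and 126 in WT and 134, 151, 205 and 225 in KO, where the lowest KO library lay within the WT range.

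For the genes past the genotype threshold, fitted log2 fold changes were negative at 6 of 6 times for Rpl34 (-0.68 to -0.29), Rps2 (-0.53 to -0.17) and Rpsa, and positive at 6 of 6 for Rpl30 (0.20 to 0.52) and Rpl3. Rps18 was negative at 5 of 6. These genes were chosen by the fit over the same libraries, so their directions at single times are a description only.

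**Figure D5:**
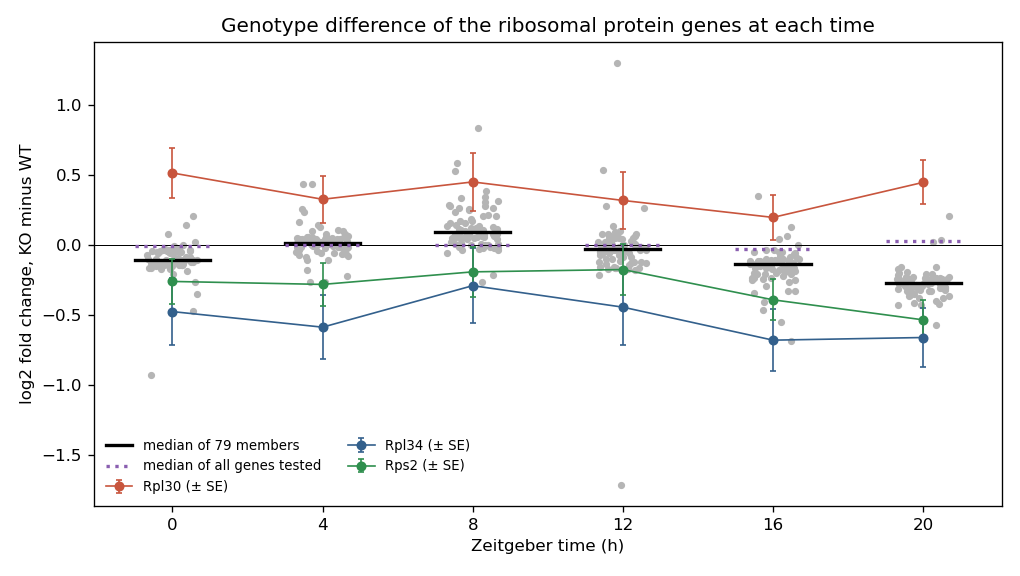
Log2 fold change, KO minus WT, at each zeitgeber time for Rpl30, Rpl34 and Rps2 (with SE) and for the other ribosomal protein genes (grey points), with the median of the 79 members (solid) and of all genes (dotted), after TMM scaling. The members' median is 0.09 at ZT8 and -0.27 at ZT20, while with library totals it is 0.17 and -0.16. The median of all genes is 0.0012 and 0.030 at these times, and 0.076 and 0.14 with library totals. On the TMM scale, leaving out single libraries moves the members' median at ZT8 between 0.0017 and 0.21. That at ZT20 moves between -0.35 and -0.22.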

How the data were processed

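The authors deposited raw counts per gene ID and library. Build mm10 and the tools DESeq2 1.30.1, featureCounts 2.0.1 and STAR 2.7.8a are named in the submitters' processing notes. Annotation, strand setting and the treatment of reads with several matches: not given in the sources used here. Libraries came, per the labels, from total RNA with a stranded kit. Symbols matched 25275 of 27179 IDs, with 98.0% of the counts.

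Tests used R 4.3.3 and edgeR 4.0.16 (quasi-likelihood fit on the deposited counts, TMM, filterByExpr, Benjamini-Hochberg adjustment over all genes tested, threshold 0.05). The genotype fit held all 39 libraries with time as a factor of 6 levels. Rhythm was 2 cosine terms within a genotype, its difference 2 interaction terms, and single times were contrasts of 12 group means. Amplitudes came from least squares on log2 CPM (prior count 2). The code was tested on simulated data. DESeq2 1.42.0 and other scalings, filters, covariates and sample sets were alternatives. Nothing says that libraries came from separate cohorts, so p-values measure the spread between pools.

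Genes named were the markers Rps2 and Rpl30, members past the threshold, those of smallest p for rhythm and at single times, the highest and lowest levels, the structural and paralog lists and up to 4 genes of smallest p per related list. Rps6, Rpl13a, Rps14, Rpl29, Rpl37a, Rps20 and Eef2 were described for their place near the threshold, in the spread or in the lists after values were seen. The members and lists (20 lists, 207 entries) were chosen with earlier results of these data known.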

Additional observations from a re-analysis of the deposited data

Results flagged for a closer look

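Of 28 sets of 4 or 5 libraries of 1 genotype and time checked for a library far from the rest, 3 held one. Chance flags about 1 in 20. The summed level of the ribosomal protein genes was 2.35% of counts in WT replicate 2 of ZT4, where the other 3 held 2.79%, 2.84% and 2.87%. In WT replicate 1 of ZT16 Rpl34 was at 288 CPM, where the other 4 libraries had 173, 174, 198 and 199, and Rps18 was at 626 CPM, where the others had 396, 401, 412 and 445. The TMM factor of WT replicate 1 of ZT16 was 0.839, the lowest of the 39 libraries, and its summed level was 3.11% of counts. Its part in these values was not tested.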

How the results depend on the processing

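The number of members past the genotype threshold, 6, was 3 without the 12 lymphoid-rich libraries, and 4 to 8 with each library left out. Members past the threshold for rhythm in WT, 0, became 1 with DESeq2. At ZT20 the 0 became 1 with library totals (Rpl30) and 1 with 4 tissue scores (Rps2), and 0 to 1 with each library left out. Rps2 was the gene gained, without WT replicate 1 of ZT16 or without KO replicate 2 of ZT0, 2 of ZT8, 1 or 2 of ZT12, or 4 of ZT20. Rhythm in WT and in KO, its difference, and the other times stayed at 0 to 0 with each library left out. The log2 ratio of the summed level ran from -0.0157 to 0.0117 with each library left out, an alternative chosen after seeing the data, and was -0.0435 without Pth, Chga and Tg in the total and 0.0147 without the lymphoid-rich libraries. Over all genes the 1435 calls became 454 without the lymphoid-rich libraries and 2482 with library totals, where 2138 were higher and 344 lower. No contrast at ZT12 could be fitted without the lymphoid-rich libraries, since both KO libraries of ZT12 are among them. With the replicate number as a block 6 members passed (2 higher, 4 lower) and 1271 of all genes, and the counts for rhythm, its difference and each time stayed at 0. Deviations of libraries of the same number correlated at -0.29 to 0.51, with a median of 0.075 over 17 pairs. Those of different number correlated at -0.44 to 0.37, with a median of -0.044 over 47 pairs. The ranges overlapped widely, and the numbers were not read as pairs. Low counts limit Rpl10l, Rpl39l, Rpl39 and Rpl3l, and shared sequence limits most other members. The origin of the low count of Rpl39 was not tested.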
